A study of Homo sapiens with 6 samples.

Results

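STAT proteins (signal transducers and activators of transcription) are latent transcription factors that carry cytokine signals from the cell membrane to the nucleus. Expression of 6 STAT genes, STAT2, STAT3, STAT4, STAT5A, STAT5B and STAT6, was examined by RNA-seq in BT-549 cells silenced for IRF1. The genes were taken by symbol from the 37887 symbols of the count table, and each was found once. All 6 were among the 18851 genes abundant enough to be tested. The BT-549 line was derived from a human breast tumour and is triple-negative, without hormone receptors or amplified HER2. The study compared 3 control samples, given 0.1% DMSO, with 3 IRF1shRNA samples, given 500 ng/ml doxycycline, from triplicate cultures. Controls are titled as a control shRNA, but the series text describes a single line with a doxycycline-inducible IRF1 hairpin. Doxycycline was absent from every control, and the effect of the drug and that of silencing cannot be told apart. One hairpin in one cell line was tested.

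A cytokine bound to its receptor activates JAK kinases, which phosphorylate STAT proteins on tyrosine so that they pair and enter the nucleus. STAT2 acts with IRF9 in ISGF3, the complex that type I interferon (IFN) forms on interferon-stimulated response elements (ISRE). STAT3 serves IL6-family cytokines, STAT4 serves IL12 in lymphocytes, STAT5A and STAT5B serve prolactin, growth hormone and several interleukins, and STAT6 serves IL4 and IL13. SOCS proteins, many of which are induced by STATs, dampen the same receptors.

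Library totals ranged from 55143808 to 160436234 counts, with IRF1shRNA replicate 2 the smallest. Silencing was seen in every library, with IRF1 at 45.3 to 51.5 CPM in controls and at 13.8 to 14.9 CPM in IRF1shRNA samples. CPM is the read count normalised to a library total that was scaled by TMM, a correction for differences in library makeup. Per-library values below follow the order of replicates 1, 2 and 3. Markers of mesenchymal triple-negative cells (VIM, ZEB1, CDH2, AXL, CAV1, FN1 and SPARC) were at 77.7 CPM or more in every library. Of 10 lymphoid markers, none exceeded 0.757 CPM in any library, and CD3D, CD2 and MS4A1 had no count. Luminal and epithelial markers ranged from 0 to 54.8 CPM, and the highest value was that of ERBB2, at 35.0 to 54.8 CPM.

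Silencing IRF1 was followed by lower STAT2 and STAT6 transcripts, at 49.7% and 57.4% of control. STAT5B was lower by a small margin, STAT3 was higher by a small margin, and STAT4 rose from near the detection limit. Of the 6 genes, 3 were downregulated and 2 upregulated at an adjusted p under 0.05 in the edgeR quasi-likelihood test, and STAT5A did not pass. One of the upward calls was STAT4, which passed the abundance filter only through its IRF1shRNA libraries, so that its call could only be upward. DESeq2 also gave 3 downregulated and 2 upregulated. Among all genes tested, 50.5% passed in either direction, 26.4% downward and 24.1% upward, so a call by itself is common in this comparison. Groups were free of overlap in 56.8% of all genes tested and in 5 of the 6 STAT genes. The median log2 fold change of the 6 genes was −0.37, beside −0.0024 for all genes tested.

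**Figure D1:**
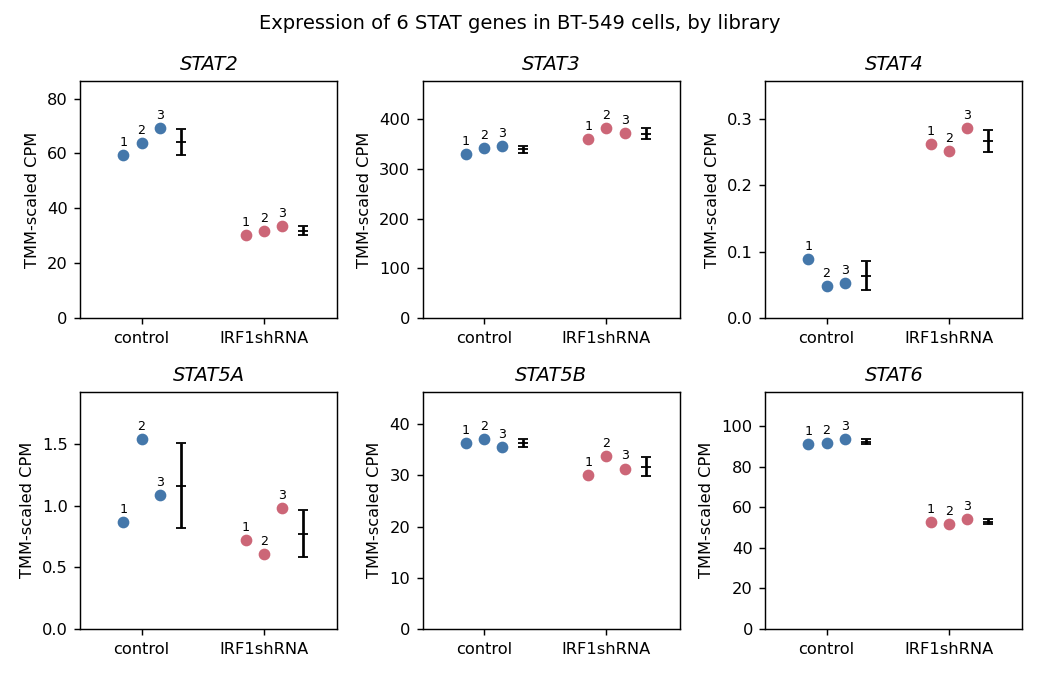
TMM-scaled CPM of each STAT gene by library, in linear panels that start at 0, with replicate numbers above the points and the mean ± SD of 3 libraries beside them. STAT2 and STAT6 sit lower in every IRF1shRNA library, at 30.4 to 33.5 and 51.9 to 54.5 CPM, while the STAT5A groups overlap.

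STAT2 and STAT6 lie on chromosome 12 and are transcribed from the minus strand, STAT2 at chr12:56341597-56360155 and STAT6 at chr12:57095408-57132139 (GRCh38, GENCODE 29). STAT3, STAT5A and STAT5B lie side by side on chromosome 17, and STAT4 is on chromosome 2. Promoter windows of 250 bases before to 50 after each RefSeq start (GRCh38.p14) are shown for the pair of genes with the largest decrease among the 6, together with STAT5A, whose window held the one motif match among the STAT genes. Each is written 5′ to 3′ on the strand of its gene, and capitals mark a motif match. The STAT6 start used by RefSeq lies inside the longer gene of GENCODE.
STAT2, chr12:56360058-56360357: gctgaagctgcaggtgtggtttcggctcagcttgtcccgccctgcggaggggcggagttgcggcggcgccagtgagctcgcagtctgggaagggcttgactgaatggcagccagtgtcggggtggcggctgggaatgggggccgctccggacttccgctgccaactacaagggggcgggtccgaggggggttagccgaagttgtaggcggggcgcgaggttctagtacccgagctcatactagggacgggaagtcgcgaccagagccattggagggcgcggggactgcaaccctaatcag
STAT6, chr12:57110240-57110539: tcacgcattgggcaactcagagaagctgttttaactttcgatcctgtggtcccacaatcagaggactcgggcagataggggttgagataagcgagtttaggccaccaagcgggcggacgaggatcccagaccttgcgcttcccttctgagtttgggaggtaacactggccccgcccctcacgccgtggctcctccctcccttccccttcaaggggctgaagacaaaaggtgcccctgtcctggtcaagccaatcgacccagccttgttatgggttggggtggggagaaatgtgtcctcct
STAT5A, chr17:42287189-42287488: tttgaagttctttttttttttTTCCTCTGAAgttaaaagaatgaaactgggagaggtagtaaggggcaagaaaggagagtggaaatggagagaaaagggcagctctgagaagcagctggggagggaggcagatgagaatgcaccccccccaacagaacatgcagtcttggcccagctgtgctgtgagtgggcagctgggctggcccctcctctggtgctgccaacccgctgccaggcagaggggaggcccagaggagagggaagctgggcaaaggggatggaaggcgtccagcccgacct
ISG15, chr1:1013370-1013413: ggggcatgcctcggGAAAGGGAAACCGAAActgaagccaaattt
The ISG15 stretch comes from the promoter of an ISGF3 target and shows 2 overlapping ISRE cores. The ISRE core was searched as GAAA, any 2 bases and GAAA, on both strands. It was in 3.57% of 35116 promoter windows and in none of the 9 windows of the 6 STAT genes. The gamma-activated sequence, the site of STAT dimers, was searched as TTC and GAA with 3 bases between them (7.66% of windows) or with 4 (6.44%). The single match was in STAT5A, with 4 bases between, starting 229 bases before its start site. A match in letters is a description and no evidence of binding, and a window without one says nothing of sites elsewhere.

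STAT2, the ISGF3 subunit of the type I IFN response, was at 59.4, 63.8 and 69.1 CPM in the controls. The IRF1shRNA libraries held 30.4, 31.8 and 33.5 CPM, each below every control. Means were 64.1 ± 4.84 and 31.9 ± 1.58 CPM (SD, n = 3 each). This gave a log2 fold change of −1.01 ± 0.06 (SE), a 95% interval of −1.13 to −0.89 and an edgeR adjusted p of 1.66e-10. Of all genes tested, 4.71% had a lower log2 fold change.

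STAT6, the IL4 and IL13 effector, was the most even of the 6 between replicates. Controls held 91.5, 91.9 and 93.7 CPM, and IRF1shRNA libraries 52.8, 51.9 and 54.5 CPM. The groups lay far apart beside this spread, with means of 92.3 ± 1.19 and 53.0 ± 1.31 CPM (SD, n = 3 each). The log2 fold change was −0.80 ± 0.04 (SE), with a 95% interval of −0.89 to −0.71 and an edgeR adjusted p of 5.22e-11. In GENCODE 29, exons of STAT6 share 69 bases with NAB2 and 59 bases with LRP1, both on the opposite strand, or 0.945% and 0.808% of its exon length. NAB2, a corepressor of EGR factors, had a log2 fold change of −0.12 ± 0.06 (SE; edgeR adjusted p 0.0955). LRP1, an endocytic receptor, had one of −0.19 ± 0.05 (edgeR adjusted p 0.00371).

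STAT5B, a mediator of growth hormone and prolactin signals, was at 36.3, 37.1 and 35.6 CPM in the controls. It was at 30.04, 33.8 and 31.4 CPM in the IRF1shRNA libraries. The highest IRF1shRNA value thus lay just under the lowest control value. STAT5B had a log2 fold change of −0.20 ± 0.06 (SE; edgeR adjusted p 0.00670), and 31.7% of all genes tested had a lower one.

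STAT3, the IL6-family effector, had the highest CPM of the 6, and 431 of the genes tested had a higher mean CPM, not divided by exon length. Controls held 330.2, 341 and 346 CPM, against 359, 381 and 371 CPM after silencing. The IRF1shRNA libraries were all higher, with a mean of 109% of the control mean. STAT3 had a log2 fold change of 0.13 ± 0.04 (SE), a 95% interval of 0.04 to 0.22 and an edgeR adjusted p of 0.0163. This call was lost without control replicate 1 (log2 fold change 0.11, edgeR adjusted p 0.0690) and without control replicate 2 (0.13 and 0.0547).

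STAT4, which conveys IL12 signals in lymphocytes, was scarce in both groups. It had 11, 6 and 8 counts in the controls and 33, 14 and 47 counts after silencing. In CPM these were 0.0892, 0.0490 and 0.0536 against 0.262, 0.252 and 0.286, where 3 counts, taken as the least that is detected, are worth 0.0182 to 0.0540 CPM depending on the library. The log2 fold change was 2.06 ± 0.42 (SE), with a 95% interval of 1.17 to 2.96 and an edgeR adjusted p of 5.52e-04. STAT4 passed the abundance filter only through its IRF1shRNA libraries, as given above. With every library thinned to the smallest total, the counts were 6, 2 and 1 in controls and 16, 14 and 19 in IRF1shRNA samples, and the log2 fold change was 2.36. The ranges did not overlap on either scale. Of 10 lymphoid markers, 3 were at 0 in all libraries and only PTPRC, the pan-leukocyte phosphatase CD45, passed the filter, with 0.526 ± 0.0324 CPM before and 0.481 ± 0.243 CPM after silencing (SD, n = 3 each). The markers summed to 0.522 to 0.590 CPM in controls and 0.401 to 0.829 CPM in IRF1shRNA samples. Without PTPRC the sums were 0.0162 to 0.0536 and 0.0721 to 0.222 CPM, and rest on few counts. The largest such count was 14, for TBX21 in IRF1shRNA replicate 1, with 0 in replicates 2 and 3 of that group. The part of these markers in the STAT4 values was not tested. An RNA annotated on the opposite strand shares 109 bases with STAT4 exons, or 2.28% of their length.

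STAT5A, the close relative of STAT5B that is best known from mammary gland differentiation, was at 0.868, 1.54 and 1.09 CPM in the controls. After silencing it was at 0.722, 0.612 and 0.984 CPM, and the groups overlapped. STAT5A had a log2 fold change of −0.55 ± 0.22 (SE; edgeR adjusted p 0.0526) and an unadjusted 95% interval of −1.02 to −0.07. Single libraries decided on which side of the threshold it fell. Without control replicate 2 it was −0.30 (edgeR adjusted p 0.336), without control replicate 1 −0.72 (0.0152) and without IRF1shRNA replicate 3 −0.78 (0.0199). STAT5A and STAT5B share stretches of identical sequence, which hold 8.61% of the 50-base words of STAT5A transcripts and 7.81% of those of STAT5B. No such word was shared by any other pair of the 6. How reads from these stretches were assigned is not given in the sources used here, so their values are uncertain to that extent.

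To order the STAT genes by level, CPM was divided by exon length, with all GENCODE 29 exons of a gene merged. Per kilobase, the order in controls was STAT3 (38.5 ± 0.890 CPM per kb, SD, n = 3), STAT6 (12.7 ± 0.163), STAT2 (10.5 ± 0.792), STAT5B (5.63 ± 0.117), STAT5A (0.203 ± 0.0598) and STAT4 (0.0134 ± 0.00460). No neighbours in this order overlapped. In IRF1shRNA samples the order was unchanged, but STAT2 at 5.22 ± 0.259 and STAT5B at 4.92 ± 0.300 CPM per kb could no longer be told apart, since their libraries overlapped. That overlap rested on the length used. With the exons of the GENCODE basic transcript set, STAT2 was at 9.40 ± 0.467 and STAT5B at 6.22 ± 0.378 CPM per kb, and the gene order in both groups was as before. STAT4 stayed below STAT5A after silencing, at 0.0557 ± 0.00358 against 0.134 ± 0.0332 CPM per kb.

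**Figure D2:**
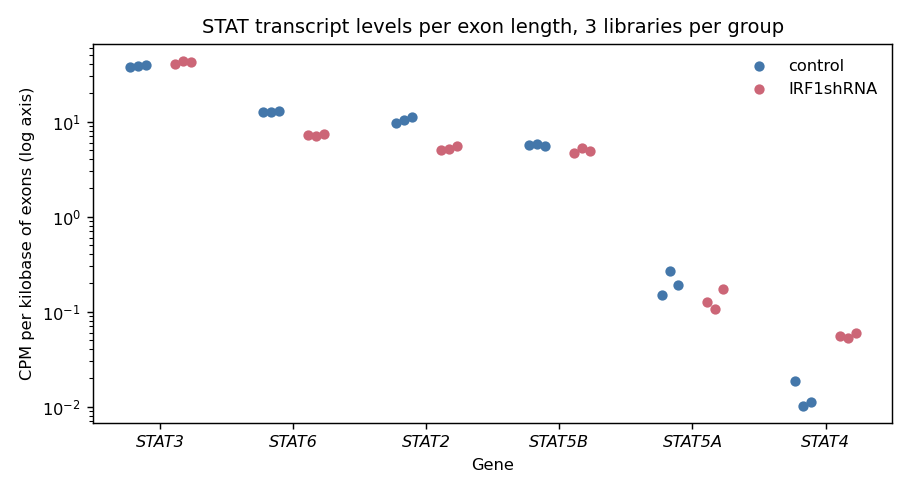
CPM per kilobase of merged exons of the 6 STAT genes on a log axis, with 1 point per library and the control and IRF1shRNA libraries side by side. STAT3 is highest in both groups, and the STAT2 points of IRF1shRNA libraries (4.97 to 5.49) come down to the level of STAT5B (4.66 to 5.25).

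The makeup of the sum of these 6 STAT genes therefore differed between the groups. The 6 genes summed to 65.5 to 69.1 CPM per kb in control libraries and 57.8 to 60.9 in IRF1shRNA libraries. STAT3 made up 57.0% ± 0.222 of that sum in controls and 70.5% ± 0.457 in IRF1shRNA samples (SD, n = 3 each). STAT6 went from 18.8% ± 0.311 to 12.2% ± 0.460, and STAT2 from 15.5% ± 0.771 to 8.75% ± 0.323. STAT5B was at 8.36% ± 0.321 and 8.25% ± 0.316, with overlapping libraries. These shares follow from the levels above and depend on the exon lengths.

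Ratios of counts within a library, each with 0.5 added, depend neither on scaling between libraries nor, when compared between groups, on length. The log2 ratio of STAT2 to STAT3 was −2.47, −2.42 and −2.32 in the controls and −3.56, −3.58 and −3.47 after silencing. The groups were far apart, with a difference of −1.13. The ratio of STAT2 to STAT6 was lower too, by less, with a mean log2 ratio of −0.53 ± 0.09 in the controls and −0.73 ± 0.05 after silencing (SD, n = 3 each) and again no overlap. Both gave p = 0.1 in a two-sided exact permutation test over samples, the smallest that 3 against 3 allows, so neither can reach 0.05. The log2 ratio of STAT5A to STAT5B was −5.00 ± 0.40 in control and −5.38 ± 0.39 in IRF1shRNA samples, and overlapped (exact permutation p = 0.5). Of these 3 ratios, chosen with earlier results known, the Benjamini-Hochberg adjusted values were 0.15, 0.15 and 0.5.

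**Figure D3:**
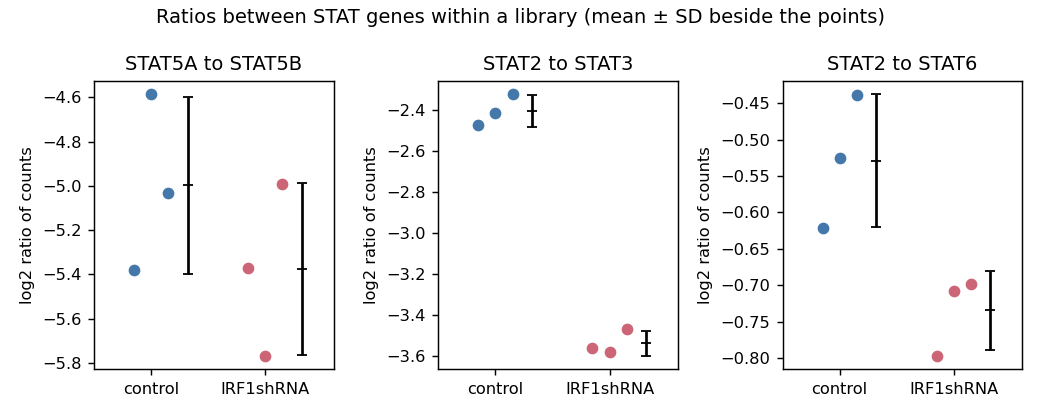
log2 ratios of counts between pairs of STAT genes within each library, with 1 point per library and the mean ± SD of 3 beside them. The STAT2 to STAT3 ratio is near −2.40 in controls and −3.54 in IRF1shRNA samples, whereas the STAT5A to STAT5B ratio overlaps.

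Genes next to the STAT genes did not all move with them. Along chromosome 17, toward higher coordinates, GHDC had a log2 fold change of 0.03 (edgeR adjusted p 0.835), STAT5B −0.20, STAT5A −0.55, STAT3 0.13 and CAVIN1, which codes for a coat protein of caveolae, −0.72 (edgeR adjusted p 6.63e-10). STAT3 was thus the one gene of the 5 that rose past the threshold. It lies 1380 bases from STAT5A and 13883 bases from CAVIN1. IL23A, a subunit of IL23, and APOF, an apolipoprotein, flank STAT2. They were at 0.396 and 0.104 CPM in controls, and neither passed the threshold (edgeR adjusted p 0.226 and 0.184).

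The kinases, ligands and receptors upstream of the STATs were examined next. Of the 4 JAK kinases, 1 was upregulated and 0 downregulated by edgeR, with the same counts at an unadjusted p under 0.05 and by DESeq2. Shares over all genes tested were 24.1% upward and 26.4% downward. JAK1, shared by the IFN, IL6 and IL4 receptor families, rose from 343 ± 5.19 to 381 ± 21.0 CPM (SD, n = 3 each). The log2 fold change was 0.15 ± 0.05 (SE; edgeR adjusted p 0.0114). JAK2 was at 51.0 ± 1.95 and 50.8 ± 2.29 CPM (edgeR adjusted p 0.932). TYK2 was at 71.6 ± 2.37 and 74.8 ± 3.42 CPM (edgeR adjusted p 0.264), and passed upward with scaling by library size only (0.0461). JAK3, a kinase of lymphoid cells, was at 0.535 ± 0.116 and 0.586 ± 0.233 CPM (edgeR adjusted p 0.599). Each of these 3 had overlapping groups.

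Of 37 cytokine ligands that act through STATs, 15 were tested, 5 were downregulated and 0 upregulated, with 0 upregulated at an unadjusted p under 0.05 or by DESeq2 and 1 without control replicate 1 or without IRF1shRNA replicate 2. The list median was −0.23, and 26.4% of all genes tested were called downward and 24.1% upward. IL6, the prototype STAT3 cytokine, fell from 11.5 ± 0.690 to 4.87 ± 0.301 CPM (log2 fold change −1.24 ± 0.08, SE). IL7 and IL15, which signal through STAT5, had log2 fold changes of −1.36 ± 0.15 and −0.68 ± 0.10. CSF2 was scarce, at 16, 26 and 14 counts in the controls and 0, 2 and 4 after silencing. It passed the abundance filter only through its control libraries, so its call, counted among the 5, could only be downward. The largest edgeR adjusted p among these 4 ligands was 0.00235.

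Of 42 cytokine receptors in the list, 31 were tested, 11 were downregulated and 8 upregulated, with a list median of −0.11. With 26.4% of all genes tested called downward and 24.1% upward, counts in both directions are common here and are no result about receptors. IL12RB1, counted among the 11, passed the abundance filter only through its control libraries, so its call could only be downward. IL5RA, counted among the 8, passed only through its IRF1shRNA libraries, so its call could only be upward. PRLR, the prolactin receptor upstream of STAT5, fell from 105 ± 2.55 to 31.3 ± 2.26 CPM (log2 fold change −1.74 ± 0.05, SE). IL7R was at −1.03 ± 0.06 and IL15RA at −1.98 ± 0.17. OSMR, an oncostatin M receptor chain that activates STAT3, rose from 284 ± 4.99 to 436 ± 15.8 CPM (log2 fold change 0.62 ± 0.04).

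Of the SOCS family, all 8 members were tested, 6 were downregulated and 2 upregulated, with a list median of −0.44. These counts stand beside 26.4% downward and 24.1% upward among all genes tested. SOCS2, an inhibitor of growth hormone signaling and a STAT5 target, fell from 3.98 ± 0.102 to 2.14 ± 0.0524 CPM (log2 fold change −0.89 ± 0.10, SE). SOCS3, the feedback inhibitor of the IL6 receptor and a STAT3 target, had a log2 fold change of −0.21 ± 0.05. SOCS5 (−0.46 ± 0.06), SOCS6 (−0.42 ± 0.05) and SOCS1 (−0.57 ± 0.16) were also lower, while SOCS4 (0.35 ± 0.05) and SOCS7 (0.45 ± 0.07) were higher. CISH, a STAT5 target at 0.870 ± 0.165 CPM in controls, was at −0.75 ± 0.23 with an edgeR adjusted p of 0.0133, and lost the call without control replicate 3 (0.0807). After thinning to the smallest total, CISH (edgeR adjusted p 0.0875) and SOCS1 (0.0516) lost their calls, and 4 SOCS genes were called downward.

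Other inhibitors were split, with 12 of 13 tested, 5 upregulated, 3 downregulated and a median of 0.0065. Calls among all genes tested (24.1% upward and 26.4% downward) are the background for this list and for the partners below. USP18, which binds STAT2 at the IFN receptor and restrains type I IFN signals, fell from 12.4 ± 2.46 to 1.29 ± 0.204 CPM (log2 fold change −3.28 ± 0.14, SE). The phosphatase PTPN1 was at −0.46 ± 0.04, while PTPN2, a phosphatase of nuclear STATs, was at 0.52 ± 0.05 and DUSP22 at 0.90 ± 0.08. Of 11 partners and coactivators, 2 were downregulated and 3 upregulated, with a median of −8.46e-04. The downregulated partners were IRF9 (−1.43 ± 0.12), the DNA-binding subunit that STAT2 needs, and NMI (−1.08 ± 0.07), an interferon-inducible STAT-binding protein. STAM2, an adaptor of JAK receptors and endosomes, was at 0.46 ± 0.05 and the coactivator SND1 at 0.21 ± 0.04.

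The IRF family, the other transcription factor family of the IFN response, is the nearest comparison. Of 9 IRF genes, 6 were tested, 5 were downregulated and 0 upregulated (0 also at an unadjusted p under 0.05 and by DESeq2). Their median was −0.86. Among all genes tested, 26.4% were called downward and 24.1% upward. IRF1, the gene that the hairpin targets, is counted in the 5 and in the median, and its fall was the aim of the design. The median is thus not comparable with the −0.37 of the STAT genes. IRF7 had a log2 fold change of −1.45 ± 0.10 (SE), close to IRF9, whereas IRF2 (−0.29 ± 0.06) and IRF3 (−0.22 ± 0.05) were near STAT5B in size. IRF5 was at −0.21 ± 0.23 and did not pass (edgeR adjusted p 0.494). The difference between the 2 families was not tested.

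**Figure D4:**
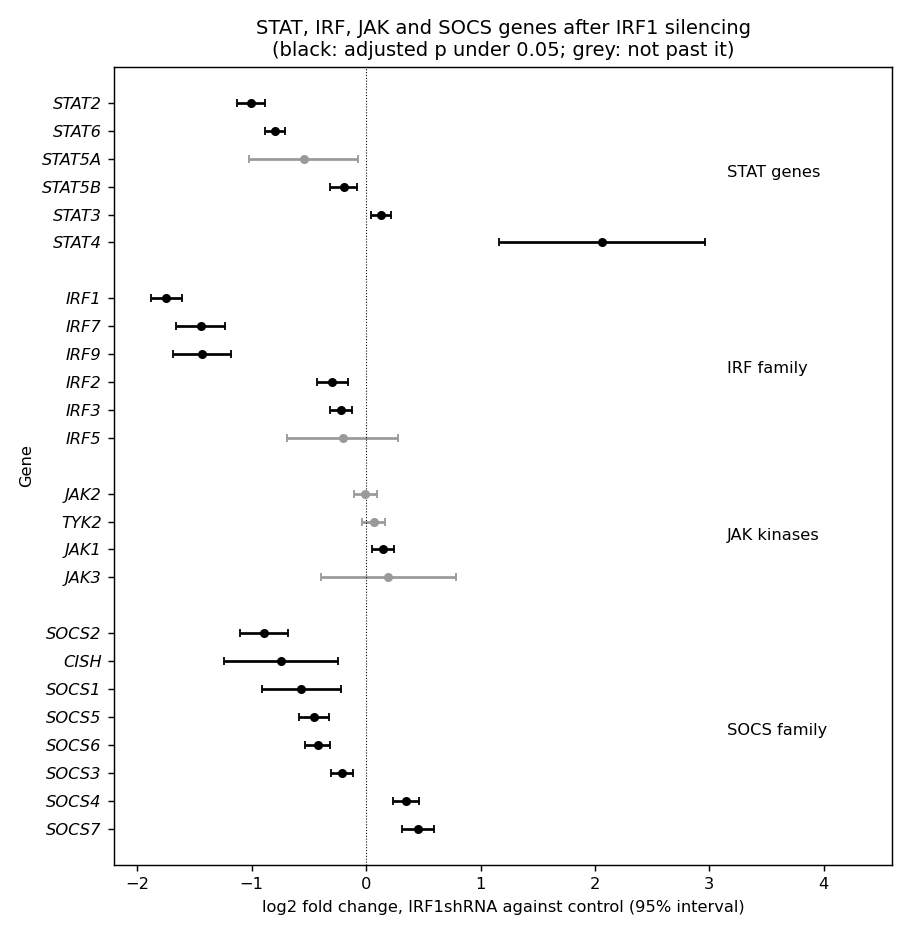
log2 fold change (IRF1shRNA against control) with its 95% interval for the STAT, IRF, JAK and SOCS genes that were tested, with black points past an edgeR adjusted p of 0.05 and grey points not past it. STAT2 and STAT6 lie near −1.01 and −0.80, STAT4 has the widest interval of the STAT genes (1.17 to 2.96), and the JAK kinases lie near 0.

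Genes known as targets of each STAT were then described by list. Over the 12 pathway and target lists, 143 of 202 genes were tested, 70 were downregulated and 27 upregulated, with a median of −0.23. Among all genes tested, 26.4% were called downward and 24.1% upward. The 70 include IRF1, the gene silenced, and all 26 ISGF3 targets, so the count is no result about the pathway as a whole. CSF2, IL12RB1, IL5RA, GATA3 and FCER2, whose direction was set by the abundance filter, are also counted. Many target genes answer to other factors too. Of 26 ISGF3 targets, 26 were downregulated and 0 upregulated (0 also at an unadjusted p under 0.05 and by DESeq2), with a median of −3.63. The smallest adjusted p-values belonged to IFI27 (−6.28 ± 0.13, log2 fold change ± SE), IFI6 (−4.46 ± 0.10), OAS2 (−5.68 ± 0.13) and OAS3 (−4.01 ± 0.10). The smallest change in the list was −0.66.

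Of 30 STAT3 targets, 21 were tested, 10 were downregulated and 3 upregulated, with a median of −0.16. The number upregulated was 5 under upper quartile scaling, without control replicate 3 or without IRF1shRNA replicate 2, and 6 under library size only. CCND1, which codes for cyclin D1 and is also a STAT5 target, fell from 90.5 ± 7.04 to 17.1 ± 1.46 CPM (log2 fold change −2.40 ± 0.07, SE). VEGFA, the angiogenic growth factor, was at −1.02 ± 0.05. NNMT, a nicotinamide methyltransferase, was at 0.40 ± 0.04, and OSMR rose as given above. Calls in both directions were also common among all genes tested (26.4% downward and 24.1% upward).

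Of 16 STAT5 targets, 12 were tested, 4 were downregulated and 3 upregulated, with a median of 0.010. Both directions were also common among all genes tested (26.4% downward and 24.1% upward). Besides CCND1 and SOCS2, PIM2, a survival kinase, was at 0.34 ± 0.06 (log2 fold change ± SE), and GHR, the growth hormone receptor, rose from 0.282 ± 0.0775 to 0.751 ± 0.220 CPM (1.45 ± 0.28). The number upregulated was 5 under library size only.

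Of 19 STAT6 targets, 11 were tested, 8 were downregulated and 3 upregulated, with a median of −0.45. GATA3 and FCER2, counted among the 8, passed the abundance filter only through their control libraries, so their calls could only be downward. Of all genes tested, 26.4% were called downward and 24.1% upward. The number downregulated was 5 without control replicate 2, without IRF1shRNA replicate 1 or with at least 1 CPM in at least 3 samples, and 4 after thinning every library to the smallest total or at an adjusted p under 0.01. PPARG, a nuclear receptor of lipid metabolism, was at −0.45 ± 0.06 (log2 fold change ± SE), IL13RA2, the decoy receptor for IL13, at −0.60 ± 0.09 and POSTN, a matrix protein, at −0.37 ± 0.08. IL4R, the receptor chain that recruits STAT6, was higher, at 0.33 ± 0.06. CCL26, CCL17 and CCL22, chemokines induced by IL4, were too scarce to be tested.

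Of 7 STAT4 targets, 4 were tested, 2 were upregulated and 1 downregulated, with a median of 0.31. Shares over all genes tested were 24.1% upward and 26.4% downward. FURIN, a proprotein convertase, was at 0.39 ± 0.07 (log2 fold change ± SE) and HLX, a homeobox factor, at −0.67 ± 0.10. IL18R1, an IL18 receptor chain, was at 0.82 ± 0.29 with an edgeR adjusted p of 0.0240, and lost the call without control replicate 2 (0.0912) and without IRF1shRNA replicate 1 (0.137). IL12RB2, a chain of the IL12 receptor, was at 0.23 ± 0.13 and did not pass (edgeR adjusted p 0.168). IFNG, the classical STAT4 target, had no count in any library.

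**Figure D5:**
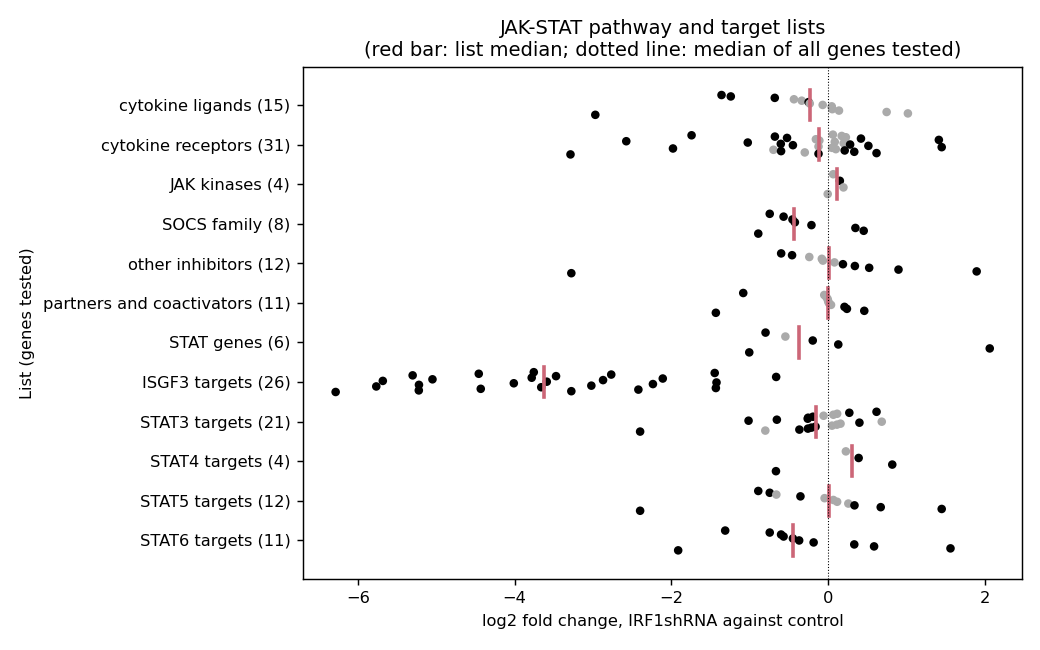
log2 fold change of each gene tested in the JAK-STAT pathway and target lists, with black points past an edgeR adjusted p of 0.05, red bars at list medians and a dotted line at the median of all genes tested (−0.0024). ISGF3 targets reach −6.28 with a median of −3.63, while the medians of the other lists plotted, which leave out the IRF family, lie between −0.45 and 0.31.

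The expression pattern of each STAT gene over the 6 libraries was last compared with 13061 genes of at least 1 CPM by Pearson's correlation of log2 of CPM plus 0.5. The points are 6 libraries in 2 groups, so the measure mostly follows the difference between groups. SSC5D, PRKD2 and BTN3A3 were most like STAT2 (r = 0.9998, 0.9997 and 0.9996), and FGFRL1, DDX60 and TCF7 were most like STAT6 (0.9997, 0.9997 and 0.9996). For STAT2 and STAT6, 2391 and 2584 genes, respectively, had r over 0.95, so a high value is common. SPARC (0.998), SIN3A (0.997) and MRPS7 (0.995) were most like STAT3, and BUB1B, PPFIBP1 and DCTD (0.995 to 0.997) most like STAT5B. STAT4 was most like ZNF605, GCC2 and NAALADL2 (0.999 each), with 1488 genes over 0.95. The 0.5 added exceeds the CPM of STAT4 in every library. STAT5A, with overlapping groups, had 11 genes over 0.95, among them RN7SL5P (0.996), HNRNPA3P6 (0.995) and COL1A1 (0.987).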

How the data were processed

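The values used are gene-level raw counts as deposited by the authors, 1 column for each of 6 samples, not normalised. The submitters' processing notes name CASAVA 1.8.2, STAR 2.7.9a, featureCounts, DESeq2 1.24.0 and GRCh38.p7. The annotation and the strand setting are not given in the sources used here. Small counts were mostly even (72.1% to 75.2% of values from 2 to 11), so mates may have been counted separately, and halved counts were tried.

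Counts were compared with edgeR 4.0.16 (R 4.3.3), quasi-likelihood test, group as the single factor, TMM scaling, the filterByExpr filter (minimum count 10) and p-values adjusted by Benjamini-Hochberg over 18851 genes. A standard error is the log2 fold change over the square root of F. The fit was tested on simulated data. DESeq2 1.42.0, other scalings and filters, leaving out each library, halving and thinning were alternatives. Gene lengths, positions and shared 50-base words came from GENCODE 29 (GRCh38), promoters from RefSeq.

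Members and lists were chosen with earlier results of these data known. Named were all 6 STAT genes, all tested JAK, SOCS and IRF genes, the 4 smallest adjusted p-values of every other list, adjacent genes (1 of them is not reported here) and the 3 most alike. Genes named beyond this (CCL26, CCL17, CCL22, IFNG, IL12RB1, IL5RA, GATA3, FCER2 and markers) were named after their values were seen. Detection floors cover counting error only, while fold change intervals include the spread between replicates.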

Additional observations from a re-analysis of the deposited data

How the results depend on the processing

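Of the values recomputed under alternatives for the comparisons, 194 kept their direction and side of the threshold or stayed within 1.5 times, 2 became weaker, 3 became stronger and 0 reversed. Ratios within a library are counted there by direction only, since their permutation p cannot reach 0.05. STAT2 (−1.06 to −0.95), STAT6 (−0.82 to −0.75) and STAT5B (−0.24 to −0.15) kept their calls wherever they were tested. STAT4 (1.92 to 2.36) kept its call too, but could not be tested with at least 1 CPM in 3 samples. Under the abundance filter, which STAT4 passed only through its IRF1shRNA libraries, its call could only be upward, so keeping it is no added support. STAT5A passed when no filter was set (−0.55). Leaving out 1 library at a time put STAT5A between −0.78 and −0.30 and STAT3 between 0.11 and 0.15. At an adjusted p under 0.01, 4 of the STAT genes passed. Scaling by library size only put the median log2 fold change of all genes at 0.049 and STAT3 at 0.18.

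JAK2 reversed under upper quartile scaling (0.038), DESeq2 size factors (0.0014), library size only (0.044), at least 1 CPM in at least 3 samples (0.018), without control replicate 1 (0.023) and without IRF1shRNA replicate 1 (0.024), with a range of −0.033 to 0.024 over left-out libraries. JAK3 reversed without IRF1shRNA replicate 3 (range −0.21 to 0.35 over left-out libraries), and GHDC without control replicate 1 (−0.057), without IRF1shRNA replicate 3 (−0.051) and after thinning (−0.027), with 0.11 at most. None of these 3 genes passed the threshold in any alternative, and the cause was not tested. Among the other named genes and lists, 1452 values stayed the same, 20 list counts moved, 8 became stronger and 7 weaker.

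With the replicate block, the STAT log2 fold changes were −1.01 (STAT2), 0.13 (STAT3), 2.06 (STAT4), −0.52 (STAT5A), −0.20 (STAT5B) and −0.80 (STAT6), and no STAT call changed. Deviations of same-numbered samples correlated at −0.0543, 0.0435 and 0.0732, so the numbers were not taken as pairs.

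STAT4 and STAT5A had the fewest counts of the STAT genes, with 6 and 34 in their lowest libraries. The part of depth in the uncertainty of their values was not tested.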
